A study of Mus musculus and Mus musculus
Oryx dammah with 30 samples.

Results

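The DNA methylation and demethylation enzymes were followed by name through RNA-seq of nuclear transfer (NT) embryos. The 9 genes were Dnmt1, Uhrf1, Dnmt3a, Dnmt3b, Dnmt3l, Tet1, Tet2, Tet3 and Tdg, chosen for their known roles. All 9 were found among the 53023 genes listed for four-cell recipients, the 53023 listed for the replication experiment and the 55364 listed for two-cell recipients. Cells of C2C12, a myoblast line from C3H mice, were fused with embryos made from C57BL/6 oocytes and DBA/2 sperm, 2 cells to an embryo. The recipients had been arrested with 0.1 µg/ml demecolcine, which all groups shared, and the NT embryos were cultured for 24 h before lysis.

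Four-cell recipients at 46 h post insemination (hpi) were cultured with or without α-amanitin, an inhibitor of RNA polymerase II, with 3 libraries per state and 3 embryos pooled per library. Two-cell recipients were used at 21 hpi (early) or 30 hpi (late), again with or without α-amanitin, with 3 libraries per stage and state and 5 embryos per library. The replication experiment compared groups named D and DR, with 3 libraries each and 4 embryos per library. Per the study's methods, cells were fused with four-cell embryos either before or after the embryo's own DNA synthesis, and DNA replication followed only the earlier fusion. The labels do not say which of D and DR had replicated its DNA. The columns for two-cell recipients fell into 2 series by name, called here the R series and the NT series, and their names do not say which series was early. Because each library held whole embryos, RNA of the recipient and of the transferred cells was measured together, and fewer cells of a type cannot be told apart from less RNA per cell.

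DNMT1 copies methylation onto the new DNA strand after replication, and UHRF1 brings it to hemimethylated DNA. DNMT3A and DNMT3B place new methyl groups, and DNMT3L is a cofactor of the de novo enzymes that has no catalytic activity of its own. TET1, TET2 and TET3 oxidize 5-methylcytosine, and TDG excises some of the oxidized bases. The early mouse embryo is known for broad loss of methylation from the parental genomes, with TET3 and maternal DNMT1 stored in the egg.

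In mm10, the maintenance genes Dnmt1 and Uhrf1 lie at chr9:20907209-20959888 on the minus strand and chr17:56303321-56323486 on the plus strand. Dnmt3a lies at chr12:3806007-3914443, Dnmt3b at chr2:153649450-153687730 and Dnmt3l at chr10:78041947-78063622, all on the plus strand. Tet1 lies at chr10:62804570-62908996, Tet2 at chr3:133463679-133545139 and Tet3 at chr6:83362373-83459084, all on the minus strand. Tdg lies at chr10:82629828-82650799 on the plus strand. Exons of Dnmt3a, Dnmt3l, Tet2 and Tdg overlap those of a gene on the other strand (Dnmt3aos, Aire, Gm42567 and Glt8d2), and Dnmt3b has a close copy in Dnmt3c and Tdg has pseudogene copies. Whether counting used strand, and how reads with several matches were treated, is not given in the sources used here, so values for these members are uncertain to that extent.

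The 6 members that could be tested in two-cell NT embryos are shown here by the promoter of their most upstream RefSeq start, 250 bases before to 50 after it (GRCm38.p6, 5′ to 3′ on the gene's strand), so that the members that changed together can be read beside those that did not. Capitals mark the GC box GGGCGG and the motif GGGGAGG, on either strand and with overlapping matches kept.

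Dnmt1 (chr9:20959839-20960138, minus strand): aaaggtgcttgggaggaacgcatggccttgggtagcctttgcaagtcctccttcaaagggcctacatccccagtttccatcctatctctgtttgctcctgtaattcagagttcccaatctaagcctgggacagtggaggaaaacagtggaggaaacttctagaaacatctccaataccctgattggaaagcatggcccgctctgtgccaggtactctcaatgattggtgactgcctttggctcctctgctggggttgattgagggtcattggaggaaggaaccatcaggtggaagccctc

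Uhrf1 (chr17:56303087-56303386, plus strand): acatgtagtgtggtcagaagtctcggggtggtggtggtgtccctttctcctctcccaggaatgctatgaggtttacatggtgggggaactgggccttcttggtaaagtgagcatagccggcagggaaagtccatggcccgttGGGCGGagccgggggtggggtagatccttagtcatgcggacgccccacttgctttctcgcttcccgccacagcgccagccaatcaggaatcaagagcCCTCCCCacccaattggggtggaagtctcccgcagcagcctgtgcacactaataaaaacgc

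Dnmt3a (chr12:3806730-3807029, plus strand): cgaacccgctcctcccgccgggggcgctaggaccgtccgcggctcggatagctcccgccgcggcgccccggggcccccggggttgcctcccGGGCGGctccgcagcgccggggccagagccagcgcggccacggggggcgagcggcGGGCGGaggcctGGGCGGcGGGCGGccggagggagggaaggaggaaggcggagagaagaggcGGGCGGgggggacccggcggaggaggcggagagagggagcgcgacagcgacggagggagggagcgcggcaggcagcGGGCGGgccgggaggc

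Dnmt3l (chr10:78042037-78042336, plus strand): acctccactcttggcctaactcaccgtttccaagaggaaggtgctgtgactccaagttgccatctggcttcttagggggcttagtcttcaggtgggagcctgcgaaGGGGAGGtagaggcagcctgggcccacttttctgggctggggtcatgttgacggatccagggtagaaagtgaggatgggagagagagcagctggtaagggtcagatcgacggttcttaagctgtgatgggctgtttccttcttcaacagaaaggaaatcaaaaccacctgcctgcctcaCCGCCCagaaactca

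Tet1 (chr10:62887275-62887574, minus strand): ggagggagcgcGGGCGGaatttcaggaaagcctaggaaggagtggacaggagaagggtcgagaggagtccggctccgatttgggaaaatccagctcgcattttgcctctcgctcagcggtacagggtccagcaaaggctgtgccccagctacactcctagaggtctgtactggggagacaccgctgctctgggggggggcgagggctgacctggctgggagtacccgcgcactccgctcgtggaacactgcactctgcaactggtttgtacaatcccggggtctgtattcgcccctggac

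Tet3 (chr6:83441629-83441928, minus strand): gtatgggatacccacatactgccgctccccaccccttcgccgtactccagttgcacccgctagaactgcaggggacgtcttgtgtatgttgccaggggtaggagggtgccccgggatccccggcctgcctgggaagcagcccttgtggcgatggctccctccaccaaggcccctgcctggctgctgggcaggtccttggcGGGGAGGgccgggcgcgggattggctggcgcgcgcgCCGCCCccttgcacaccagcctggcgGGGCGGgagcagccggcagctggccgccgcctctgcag

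These promoters differed widely in CG content. The Dnmt3a promoter held 46 CG dinucleotides and 6 matches to GGGCGG, whereas that of Dnmt3l held 6 CG dinucleotides and that of Dnmt1 only 2. Uhrf1, Tet1 and Tet3 held 12, 17 and 22, and the median over the most upstream starts of 27025 genes was 7. GGGCGG stood in 35.9% of those promoters and GGGGAGG in 18.9%. The other starts of Dnmt1 held 12 and 33 CG dinucleotides, the other start of Uhrf1 held 33 and those of Dnmt3a 47 and 18, so the value depends on the start taken.

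Levels are given as FPKM, reads scaled by gene length and by library depth, and so can be compared between genes within a table. The tables were normalized separately and levels are not compared across them. Reads assigned to genes, recovered by taking the most common product of FPKM and gene length as 1 read, were 1136771 to 3101002 per library for four-cell recipients, 2602780 to 19170641 for the replication experiment and 4364336 to 10060473 for two-cell recipients. In the replication and two-cell libraries, 40.3% to 50.5% of the values above 0 were whole reads (within 0.01 read), so reads there are estimates. Of 16 markers of oocytes and cleavage embryos (15 in the two-cell table), at least 14 were detected in every library. Of 16 myoblast and mesenchymal genes, 7 to 14 were detected per library. Lgals1, a gene of this list, was above 0 in every library, at 110 to 3589 FPKM in the two-cell, 69.3 to 1832 in the four-cell and 147 to 429 in the replication libraries. Of the defining myoblast genes, Pax7 was at 0 in every library, and Myod1 was above 0 in all 6 replication libraries but at 0 in 10 of 12 two-cell libraries and in 1 of 6 four-cell libraries. A member was tested where it reached 1 FPKM in at least 3 libraries of a table.

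Two-cell NT embryos without α-amanitin carried more transcript of Dnmt1, Dnmt3a, Dnmt3l and Tet1 than those with it, after scaling to the added ERCC spike-in RNA. Tet1, which oxidizes 5-methylcytosine, had the widest difference at 4.17-fold on the log2(FPKM + 1) scale, and Dnmt3l followed at 3.85-fold. Uhrf1 and Tet3 had differences near 0 on this scale. Thus 4 of the 6 members tested rose, beside 71.4% of 17196 genes that were called higher and 1.63% called lower (73% in either direction). The median log2 difference was 1.25 for the 6 members and 1.49 for all genes, so these counts do not set the members apart from other genes. The values above pool both series. In the NT series alone 0 of 6 members were called on the spike-in scale. The log2 difference of Dnmt3l was 0.07 there and 3.82 in the R series. Dnmt3b, Tet2 and Tdg did not reach the level needed for a test.

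**Figure D1:**
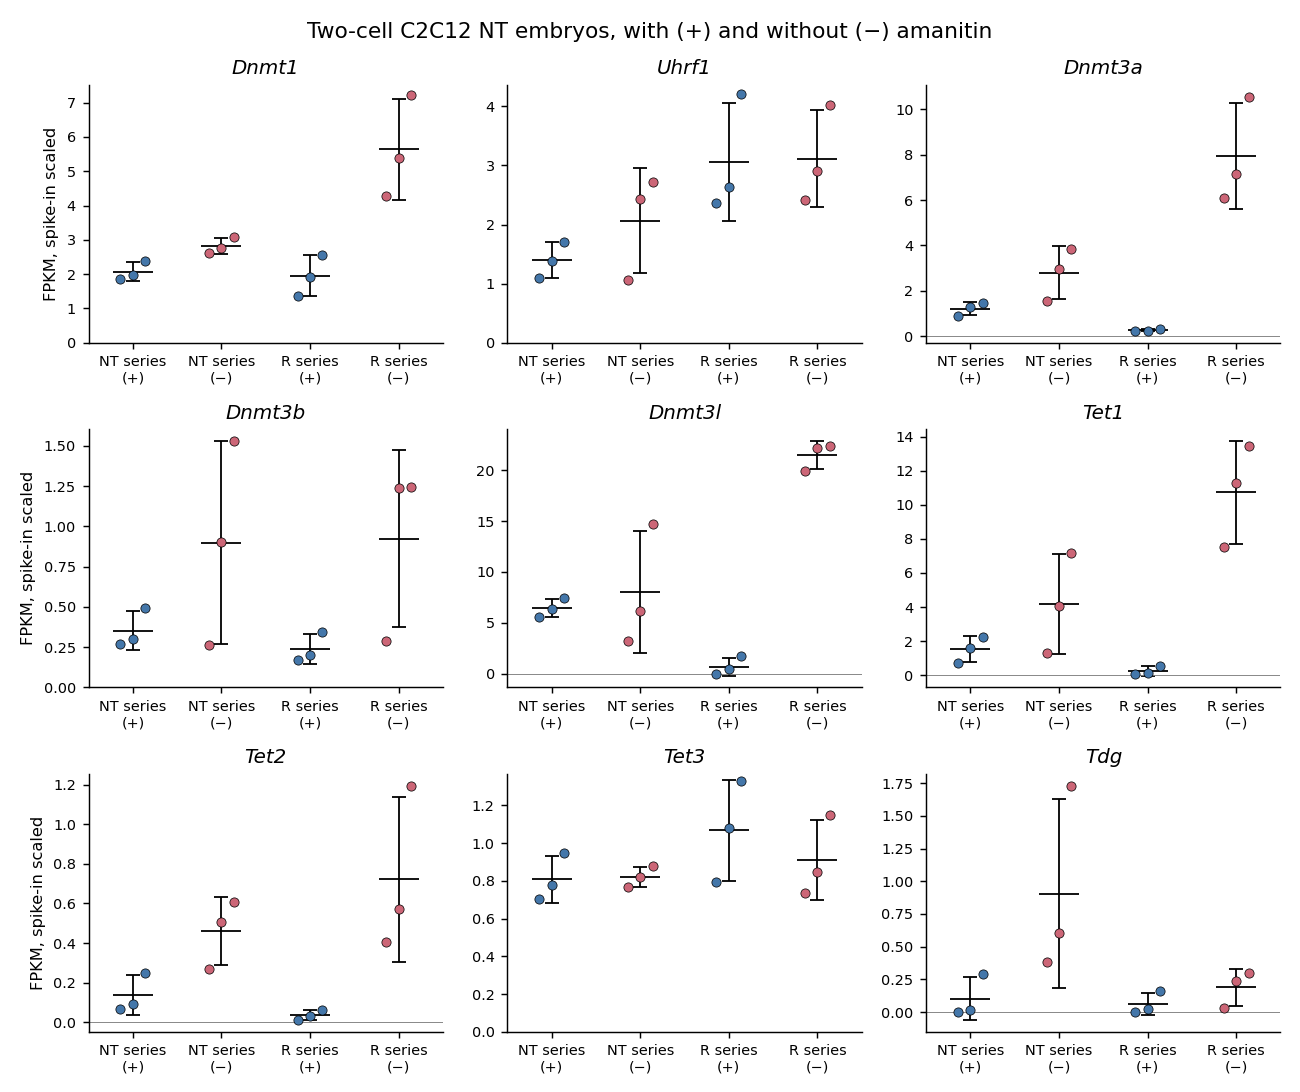
Level of each member in the 12 libraries of two-cell NT embryos (spike-in scaled FPKM, linear axis), by series and α-amanitin state. Points are libraries, bars are mean ± SD of 3, blue is with and red is without α-amanitin. Without α-amanitin, Dnmt3a, Dnmt3l and Tet1 of the R series stand far above the libraries with it, and the 12 values of Tet3 lie between 0.703 and 1.33.

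Of the maintenance genes, Dnmt1 ranged from 1.37 to 2.56 spike-in scaled FPKM with α-amanitin (median 1.95, n = 6) and from 2.61 to 7.22 without it (median 3.68, n = 6). The groups did not overlap, as was also the case, in the same direction, for 35.4% of all genes. The log2 difference was 0.74 (SE 0.31), with an adjusted p of 0.0386 by limma with Benjamini-Hochberg adjustment. That call was lost without any 1 of 7 libraries (Am2, Am3, RAm1, RAm3, R3, r1 or r2), where adjusted p ran from 0.0578 to 0.102. On FPKM as deposited the difference was -0.31 (SE 0.24, limma adjusted p = 0.296), and with median-of-ratios scaling, which sets the typical gene near no change, it was -0.93 with an adjusted p of 0.0381. Under median-of-ratios scaling 21.9% of all genes were called higher and 14.2% lower (36.1% in all). The direction for Dnmt1 therefore held only on the spike-in scale.

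Uhrf1 ranged from 1.10 to 4.20 spike-in scaled FPKM with α-amanitin (median 2.03) and from 1.06 to 4.02 without it (median 2.57). The groups overlapped across nearly their whole range. Its log2 difference was 0.17 (SE 0.32, limma adjusted p = 0.633). As deposited, Uhrf1 was lower without α-amanitin by a log2 difference of -0.84 (SE 0.33), which missed the threshold at an adjusted p of 0.0505 by limma. With median-of-ratios scaling it was -1.44 and passed, at an adjusted p of 0.0343. Over the 24 alternative settings run, single series included, Uhrf1 passed in 3.

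Among the de novo genes, Dnmt3a ranged from 0.237 to 1.47 spike-in scaled FPKM with α-amanitin (median 0.598) and from 1.56 to 10.6 without it (median 4.98). Every library without α-amanitin was above every library with it. The log2 difference was 1.76 (SE 0.37), with a limma adjusted p of 0.000631, and on FPKM as deposited it was 0.93 (SE 0.28, adjusted p = 0.0176). With median-of-ratios scaling it was 0.47 and no longer passed, at an adjusted p of 0.12.

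The cofactor gene Dnmt3l spanned 0 to 7.40 spike-in scaled FPKM with α-amanitin (median 3.65) and 3.20 to 22.4 without it (median 17.3), and the groups overlapped. The library at 0 was RAm3, where 3 reads would have given 0.161 FPKM as deposited, a limit that covers counting error only. The log2 difference was 1.95 (SE 0.60, limma adjusted p = 0.00758). It was 0.95 (SE 0.57, adjusted p = 0.176) on FPKM as deposited, where the call was lost, and 0.44 with median-of-ratios scaling (adjusted p = 0.519). Dnmt3b stayed at 0.130 to 0.890 FPKM as deposited in all 12 libraries, under the level needed for a test.

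Tet1 ranged from 0.0789 to 2.23 spike-in scaled FPKM with α-amanitin (median 0.644) and from 1.29 to 13.4 without it (median 7.33). The groups overlapped, through NT3 without α-amanitin and Am1 and Am2 with it. Its log2 difference was 2.06 (SE 0.44, limma adjusted p = 0.000679), and as deposited it was 1.22 (SE 0.36, adjusted p = 0.0145). With median-of-ratios scaling it was 0.78 and missed the threshold, at an adjusted p of 0.0607.

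Tet3, the oxidase stored in the egg, ranged from 0.703 to 1.33 spike-in scaled FPKM with α-amanitin (median 0.871) and from 0.736 to 1.15 without it (median 0.834). The groups overlapped almost fully. Its log2 difference was -0.05 (SE 0.23, limma adjusted p = 0.85). On FPKM as deposited its log2 difference was -0.72 (SE 0.23, adjusted p = 0.0201), and with median-of-ratios scaling -1.15 (adjusted p = 0.0167). Tet3 had at least 1 FPKM in 5 libraries, all with α-amanitin, so it passed the filter only through the group where it was high, and its lower calls on these scales are no support for a fall. As deposited, 2 members rose (Dnmt3a and Tet1) and Tet3 was called lower, beside 38.9% of genes called higher and 8.51% called lower (47.4% in all), with a median log2 difference over all genes of 0.67.

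Tet2 lay between 0.0278 and 0.648 FPKM as deposited in the 12 libraries and Tdg between 0 and 1.01. Tdg was at 0 in Am1 and RAm3, where 3 reads would have given 0.128 and 0.0897 FPKM. Neither gene was tested.

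The spike-in share of reads moved with the state. It was 6.54% to 11.3% in the libraries with α-amanitin and 2.38% to 6.26% in those without it, and the part of this difference in the result was not tested apart from the scaling itself.

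The 2 series of two-cell NT embryos differed. In the R series, 4 of 6 members rose on the spike-in scale, beside 76.2% of all genes called higher and 80.3% called in either direction, and the median log2 difference over all genes was 2.19. In the NT series 0 of 6 members were called on either scale, beside 36% of all genes called on the spike-in scale and 18% as deposited. At an unadjusted p under 0.05 the NT series gave 1 member on the spike-in scale (Dnmt3a, beside 48.3% of genes) and 0 as deposited (beside 33.4%). Voom was not run within a series.

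Dnmt3a had spike-in scaled levels of 0.304, 0.237 and 0.248 FPKM in the R series with α-amanitin and of 6.09, 7.15 and 10.6 without it. In the NT series its levels were 1.29, 1.47 and 0.892 with and 3.86, 2.98 and 1.56 without α-amanitin. The groups were separate in both series, as was the case for 76.7% of all genes in the R series in this direction, and the levels with α-amanitin were lower in the R series. The log2 difference was 2.79 (SE 0.32, limma adjusted p = 1.87e-06) in the R series and 0.74 (SE 0.32, adjusted p = 0.0844) in the NT series. The difference between the series was itself tested and was 2.05 (limma adjusted p = 0.00198). In that test 53.2% of all genes were called on the spike-in scale and 44.5% as deposited.

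Dnmt3l had 0.471, 1.71 and 0 spike-in scaled FPKM in the R series with α-amanitin and 22.4, 19.9 and 22.1 without it. The NT series held 5.58, 6.38 and 7.40 with and 14.7, 3.20 and 6.14 without α-amanitin. The R series groups were far apart, whereas the NT series groups overlapped. The log2 differences were 3.82 (SE 0.46, limma adjusted p = 2.71e-06) and 0.07 (SE 0.46, adjusted p = 0.914), and they differed by 3.75 (adjusted p = 0.000351).

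For Tet1, the R series held 0.0789, 0.553 and 0.106 spike-in scaled FPKM with α-amanitin and 13.4, 7.50 and 11.3 without it. In the NT series the values were 1.61, 2.23 and 0.735 with and 7.17, 4.04 and 1.29 without α-amanitin. The R series groups were separate and the NT series groups overlapped through NT3. The log2 differences were 3.22 (SE 0.44, limma adjusted p = 8.9e-06) and 0.90 (SE 0.44, adjusted p = 0.115), and they differed by 2.32 (adjusted p = 0.00606).

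Dnmt1 had 1.37, 2.56 and 1.92 spike-in scaled FPKM in the R series with α-amanitin and 7.22, 4.29 and 5.40 without it, a log2 difference of 1.16 (SE 0.30, limma adjusted p = 0.00228). The NT series held 2.40, 1.85 and 1.98 with and 3.08, 2.61 and 2.76 without it, a log2 difference of 0.31 (SE 0.30, adjusted p = 0.416). The 2 log2 differences differed by 0.85 (SE 0.42), which was not called (limma adjusted p = 0.101). The groups did not overlap in either series. Dnmt1 and Dnmt3a were the 2 members of 6 that did not overlap in the NT series, where 41.7% of all genes were separate in that direction.

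On FPKM as deposited, Dnmt3a, Dnmt3l and Tet1 of the R series rose, by log2 differences of 1.65, 2.53 and 2.11, and Uhrf1 fell by 1.46 (limma adjusted p = 7.13e-05, 0.00033, 0.000163 and 0.00086). These are 3 of 6 members higher and 1 lower, beside 54.9% and 14% of all genes (68.9% in all). Tet3, tested only through its libraries with α-amanitin, was also called lower (-1.10, limma adjusted p = 0.00164). Uhrf1 stood at 4.97, 4.30 and 9.18 FPKM with α-amanitin and at 1.11, 1.57 and 1.83 without it. Tet3 stood at 1.67, 1.77 and 2.90 with and at 0.390, 0.397 and 0.521 without it. For both genes the groups were fully separate as deposited, as were 15% of all genes in this direction. On the spike-in scale the same libraries gave log2 differences of 0.03 for Uhrf1 (adjusted p = 0.945) and -0.11 for Tet3 (adjusted p = 0.702).

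All calls of the R series, on both scales, passed when any 1 of its 6 libraries was left out. In the NT series, leaving out NT3 gave calls on the spike-in scale for Dnmt3a (log2 difference 1.00, limma adjusted p = 0.0151) and Tet1 (1.39, adjusted p = 0.00884), and leaving out any other library gave none. Marker sums moved with the state in the R series. The summed level of 16 myoblast and mesenchymal genes was 1178 to 1751 FPKM with α-amanitin and 151 to 507 without it, and that of 15 oocyte and cleavage embryo genes was 1717 to 3420 with and 7895 to 9519 without it. Most of the latter sum without α-amanitin was Dppa3, with a mean of 7977 FPKM (943 with α-amanitin), a gene that is also in the partner lists. Without Dppa3 the order turned, with 1028 to 2370 FPKM with and 575 to 812 without α-amanitin. The sum of 10 cumulus and granulosa genes was 0.145 to 3.29 FPKM with and 11.8 to 17.2 without it, and without Amhr2, its leading gene, the groups overlapped (0.145 to 2.69 and 1.51 to 3.30). The myoblast sums also overlapped without Lgals1 (148 to 386 with and 41.1 to 153 without α-amanitin). In the NT series the myoblast sum was 2281 to 2510 with and 963 to 4471 without α-amanitin, the embryo sum was 7216 to 8308 with and 8813 to 12719 without it, and the cumulus sum was 10.7 to 14.3 with and 8.76 to 17.6 without it. The embryo sum of the NT series without Dppa3 was 538 to 732 with and 338 to 470 without α-amanitin, again the other order. Their part in the result was not tested.

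**Figure D2:**
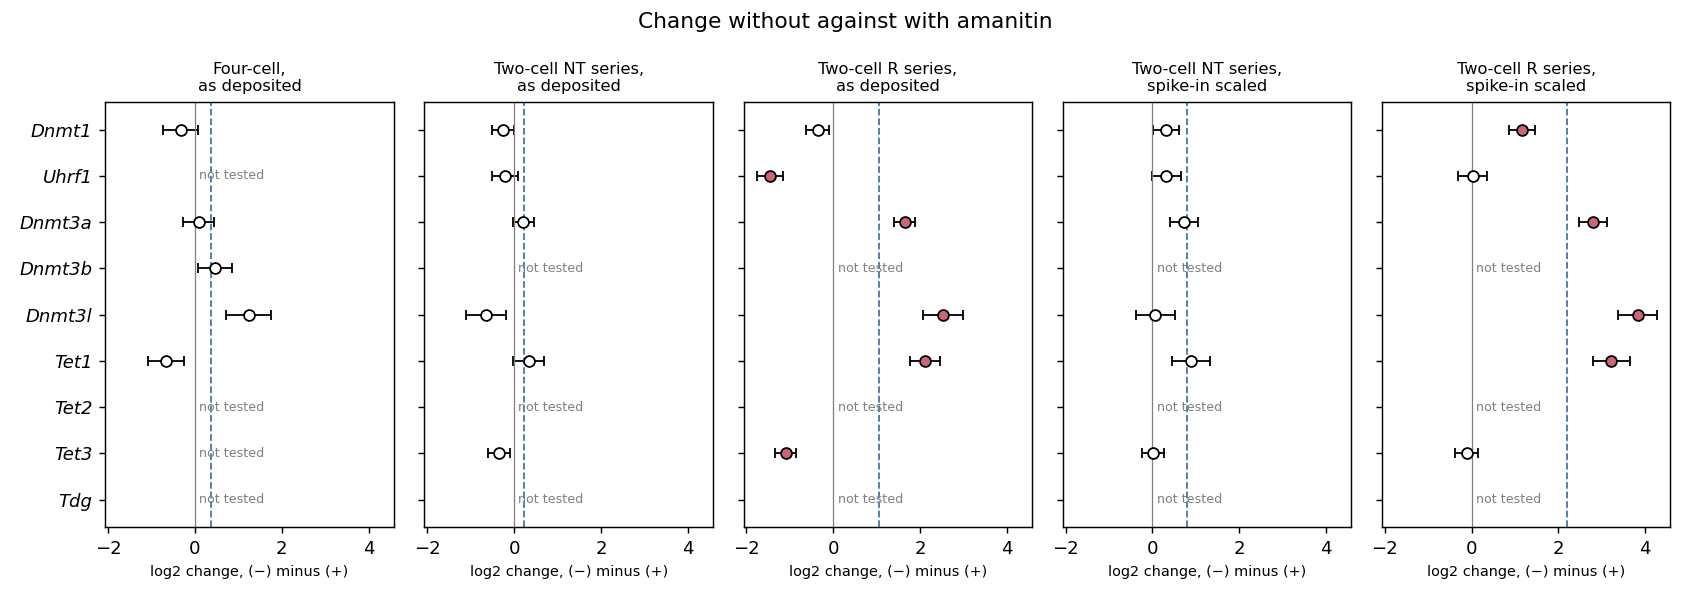
Log2 difference of each tested member, without minus with α-amanitin, with its SE, in four-cell NT embryos as deposited and in the NT and R series of two-cell NT embryos on both scales. Filled red points have a limma adjusted p under 0.05, the grey line is no change and the dashed line is the median of all genes tested. On the spike-in scale the R series spreads from -0.11 for Tet3 to 3.82 for Dnmt3l beside a median of 2.19, and no point of the four-cell or NT series panels is filled.

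The order of the members within a library differed between the sets as well. As deposited, Dnmt3l had the highest mean FPKM of the 9 in the NT series with α-amanitin (9.08 ± 2.09, SD, n = 3), the NT series without it (5.91 ± 3.05) and the R series without it (10.4 ± 0.345). In the R series with α-amanitin, Uhrf1 (6.15 ± 2.64), Dnmt1 (3.76 ± 0.753) and Tet3 (2.11 ± 0.681) led, and Dnmt3l came next (1.27 ± 1.42). Without α-amanitin in the NT series, Dnmt3l exceeded Tet1 (2.94 ± 1.42) by less than the sum of their SDs and was below it in NT2 (2.58 against 3.25 FPKM). Neighbours in the order of the R series with α-amanitin, apart from Dnmt1 and Tet3, differed by less than the sum of their SDs. Tet2 or Tdg had the lowest mean in each of the 4 sets.

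By the pattern over the 12 two-cell libraries, each tested member was matched with the 2 genes of highest Pearson r among 7251 genes with a mean of at least 5 FPKM. Dnmt3a was nearest to Zkscan14 and Obox3-ps2 (both r = 0.984), Dnmt3l to Agmat and Arl6ip1 (both 0.955), and Tet1 to Eif5 and Depdc7 (both 0.976). Uhrf1 was nearest to Elovl7 (0.969) and to Plk4 (0.957), a centriole duplication kinase. Tet3 was nearest to Arfgef1 (0.938) and Gm13339 (0.937), and Dnmt1 to Gm3143 (0.865) and Rnf187 (0.864). The points share their libraries and depth, and most genes moved with the state and series, so these values are descriptions only.

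In four-cell NT embryos 0 of the 5 members tested passed, beside 12.2% of 9884 genes called by limma (28.9% at an unadjusted p under 0.05). Dnmt3l had the highest level of the 9 in both states and the widest difference, and Tet1 was the only tested member whose groups were separate. Voom on recovered reads also called 0. At an unadjusted p under 0.05 there was 1 member, Dnmt3l. The median log2 difference was 0.09 for the 5 members and 0.37 for all genes. No spike-ins are listed for these libraries, so the values are relative within a library. They are not compared with the spike-in scaled values of two-cell NT embryos.

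**Figure D3:**
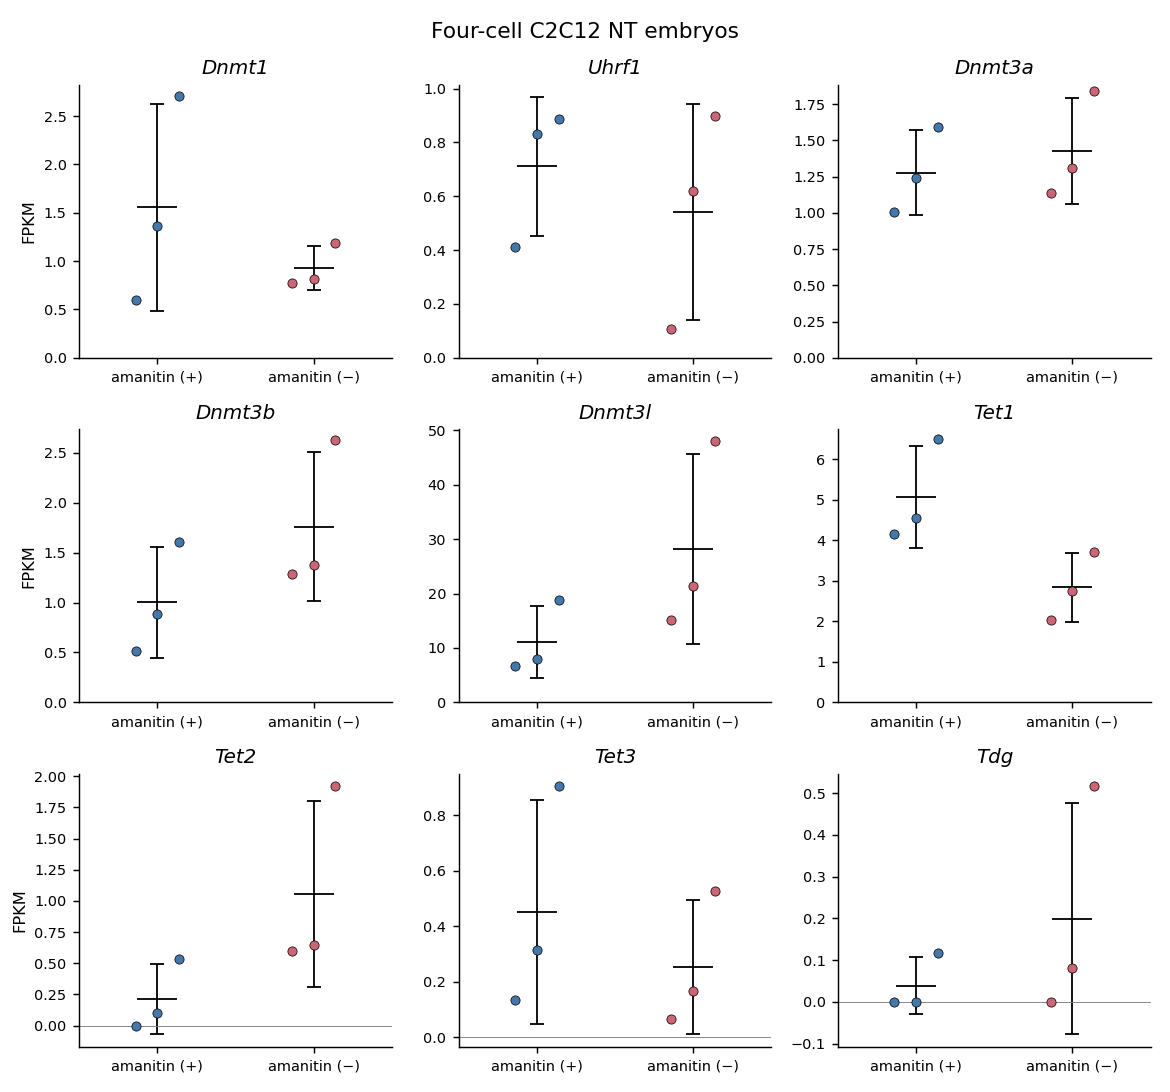
Level of each member in the 6 libraries of four-cell NT embryos (FPKM as deposited, linear axis), blue with and red without α-amanitin. Points are libraries and bars are mean ± SD of 3. Dnmt3l reaches 48.0 FPKM in 1 library without α-amanitin, and the 3 Tet1 values without it lie under the 3 with it.

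Dnmt3l had 6.69, 7.95 and 18.7 FPKM with α-amanitin and 21.4, 15.2 and 48.0 without it. The groups overlapped, since 15.2 without and 18.7 with α-amanitin each lay inside the range of the other group. Its log2 difference was 1.24 (SE 0.52, limma adjusted p = 0.152). Tet1 had 6.51, 4.55 and 4.15 FPKM with α-amanitin and 3.72, 2.76 and 2.03 without it. These groups did not overlap, which in this direction was the case for 7.56% of all genes. The log2 difference for Tet1 was -0.67 (SE 0.41, limma adjusted p = 0.317).

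The remaining tested members overlapped between the states. Dnmt1 had 2.71, 0.596 and 1.37 FPKM with α-amanitin and 0.773, 0.815 and 1.19 without it, with a log2 difference of -0.33 (SE 0.41, limma adjusted p = 0.63). Dnmt3a had 1.24, 1.00 and 1.59 with and 1.13, 1.84 and 1.31 without, with a difference of 0.09 (SE 0.35, limma adjusted p = 0.895). Dnmt3b had 0.884, 0.517 and 1.60 with and 1.38, 1.28 and 2.63 without, with a difference of 0.47 (SE 0.40, limma adjusted p = 0.471). These rest on few reads, with medians of 14.5 reads per library for Dnmt1, 45 for Dnmt3a and 13.5 for Dnmt3b, against 86 for Dnmt3l and 91 for Tet1.

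Uhrf1, Tet2, Tet3 and Tdg were not tested. Uhrf1 lay between 0.109 and 0.898 FPKM, Tet3 between 0.0655 and 0.905, and Tdg between 0 and 0.516. Tdg was at 0 in S16, S17 and S18, where 3 reads would have given 0.180, 0.305 and 0.491 FPKM, so its levels were at the limit of this depth. Tet2 had 0.535, 0.104 and 0 FPKM with α-amanitin and 0.598, 0.648 and 1.92 without it, with a limit of 0.112 FPKM for the library at 0. All 3 Tet2 values without α-amanitin were above the 3 with it, as was the case for 27.6% of the genes tested, but Tet2 itself was not tested. Gm42567, whose exons overlap those of Tet2 on the other strand, reached 6.57 FPKM in these libraries. Whether reads of these 2 genes were told apart is not known.

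Of the marker sums only that of the embryo genes was separate between the states, and 93.2% to 96.2% of it was Dppa3. The embryo sum was 12676 to 16627 FPKM with α-amanitin and 9306 to 10375 without it, and without Dppa3 the groups overlapped (534 to 700 and 446 to 630). Of the other lists, the myoblast sum was 190 to 2233 with and 219 to 716 without it, and the cumulus sum was 14.8 to 31.6 with and 15.1 to 16.9 without it. Amhr2 alone made up the cumulus sum, apart from Foxl2 in 1 library, and the other 8 genes were at 0 in all 6 libraries. Their part in the result was not tested.

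In the replication experiment no gene passed, and 0 of the 6 members tested were called on either scale, beside 0% of 14570 genes. At an unadjusted p under 0.05 limma gave 0 members on the spike-in scale (0.604% of genes) and 1 as deposited (Dnmt3b, 6.16% of genes), and voom called 0. The spike-in share ran only from 0.0181% to 0.776%, with scaling factors from 0.0937 to 5.60, so the members' differences on that scale, -0.77 to -1.67, had SEs of 1.37 to 2.10 beside a median over all genes of -1.41. The values here are therefore given as deposited, where the median over all genes was 0.02.

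**Figure D4:**
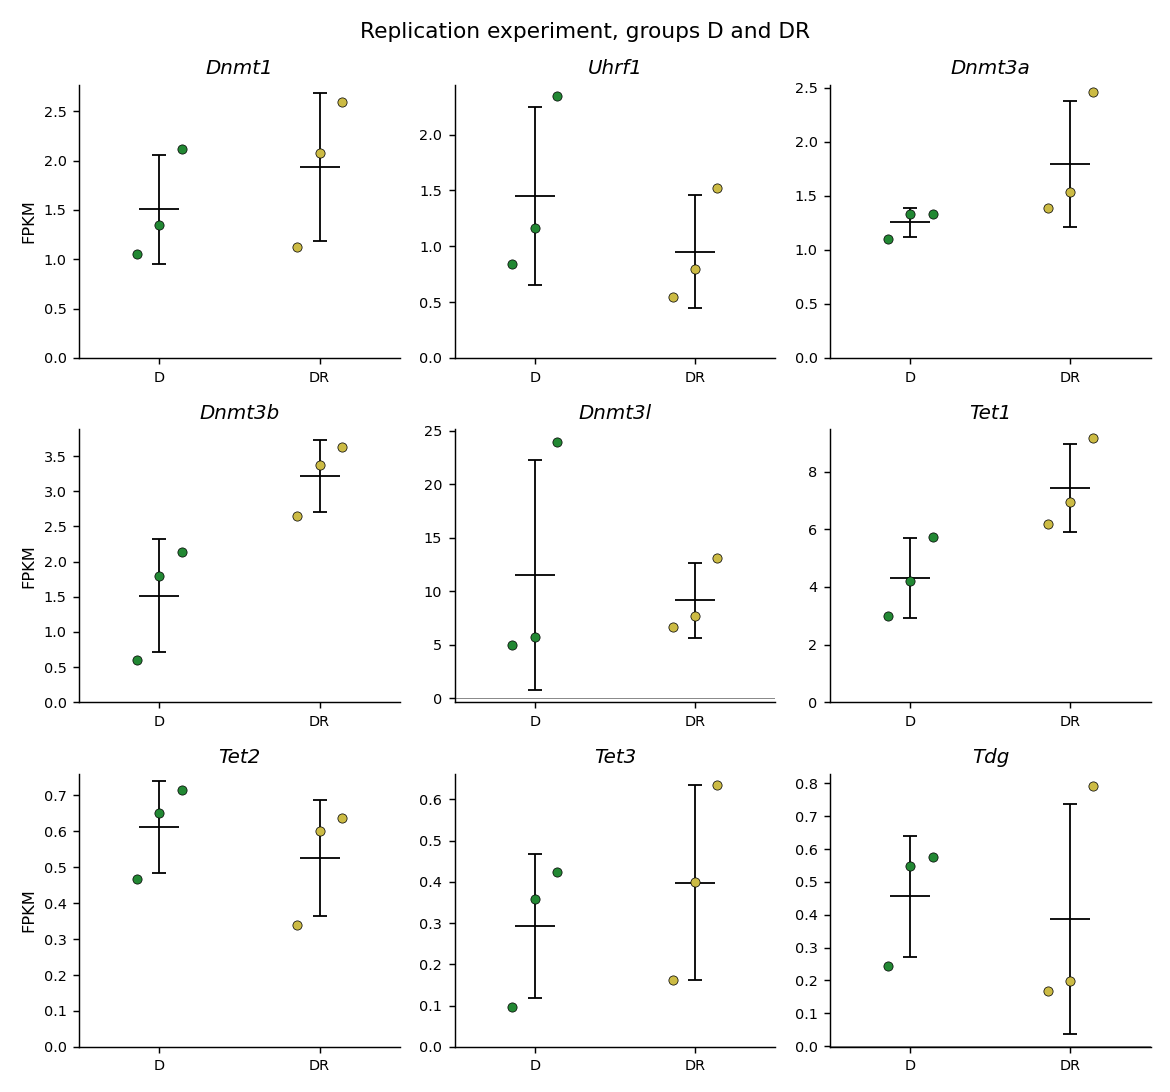
Level of each member in the 6 libraries of the replication experiment (FPKM as deposited, linear axis), by group D or DR. Points are libraries and bars are mean ± SD of 3. Dnmt3b and Tet1 of the 3 DR libraries lie above those of the 3 D libraries, and Dnmt3l has 1 D library at 24.0 FPKM.

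Dnmt3b had 2.64, 3.63 and 3.37 FPKM in DR and 1.80, 2.13 and 0.604 in D, with a log2 difference of 0.80 (SE 0.33, limma adjusted p = 0.788). Tet1 had 9.15, 6.20 and 6.96 in DR and 4.22, 5.74 and 2.98 in D, with a difference of 0.68 (SE 0.31, limma adjusted p = 0.788). Dnmt3a had 1.54, 2.46 and 1.38 in DR and 1.10, 1.33 and 1.34 in D, with a difference of 0.29 (SE 0.27, limma adjusted p = 0.847). These 3 of 6 members were separate between the groups and higher in DR, as were 8.21% of all genes. None held on the spike-in scale, where all 6 members overlapped (0.988% of all genes did not) and all 6 differences were negative.

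Dnmt3l had 6.63, 13.1 and 7.71 FPKM in DR and 5.69, 4.97 and 24.0 in D, with a log2 difference of -0.03 (SE 0.58, limma adjusted p = 0.992). Dnmt1 had 2.07, 2.60 and 1.12 in DR and 1.05, 2.12 and 1.35 in D, with a difference of 0.21 (SE 0.32, limma adjusted p = 0.889). Uhrf1 had 0.798, 1.52 and 0.541 in DR and 2.35, 1.17 and 0.837 in D, with a difference of -0.31 (SE 0.34, limma adjusted p = 0.861). All 3 overlapped between the groups. Tet2, at 0.340 to 0.716 FPKM, Tet3, at 0.0957 to 0.634, and Tdg, at 0.169 to 0.791, were under the level needed for a test. All 3 marker sums were separate between the groups, but each was led by 1 gene (Lgals1, Dppa3 and Amhr2) and none was separate without it. The myoblast sum was 252 to 377 FPKM in DR and 478 to 555 in D, the embryo sum 3770 to 4459 in DR and 4833 to 6018 in D, and the cumulus sum 16.4 to 20.6 in DR and 10.6 to 10.9 in D. Their part in these values was not tested.

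The enzymes work with partners and cofactors, and 79 such genes in 5 lists were described beside them. In two-cell NT embryos, 54 of the 67 that could be tested rose without α-amanitin on the spike-in scale and 0 fell, beside 71.4% and 1.63% of all genes, with a median log2 difference of 1.70 against 1.49 for all genes. Of these, 26 passed 4-fold, beside 34% of all genes. By list, 17 of 20 tested partners of maintenance and de novo methylation rose, 5 of 6 methyl-CpG readers, 12 of 16 base excision and deamination genes, 8 of 11 TET partners and cofactors, and 12 of 14 genes of the methyl donor cycle.

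**Figure D5:**
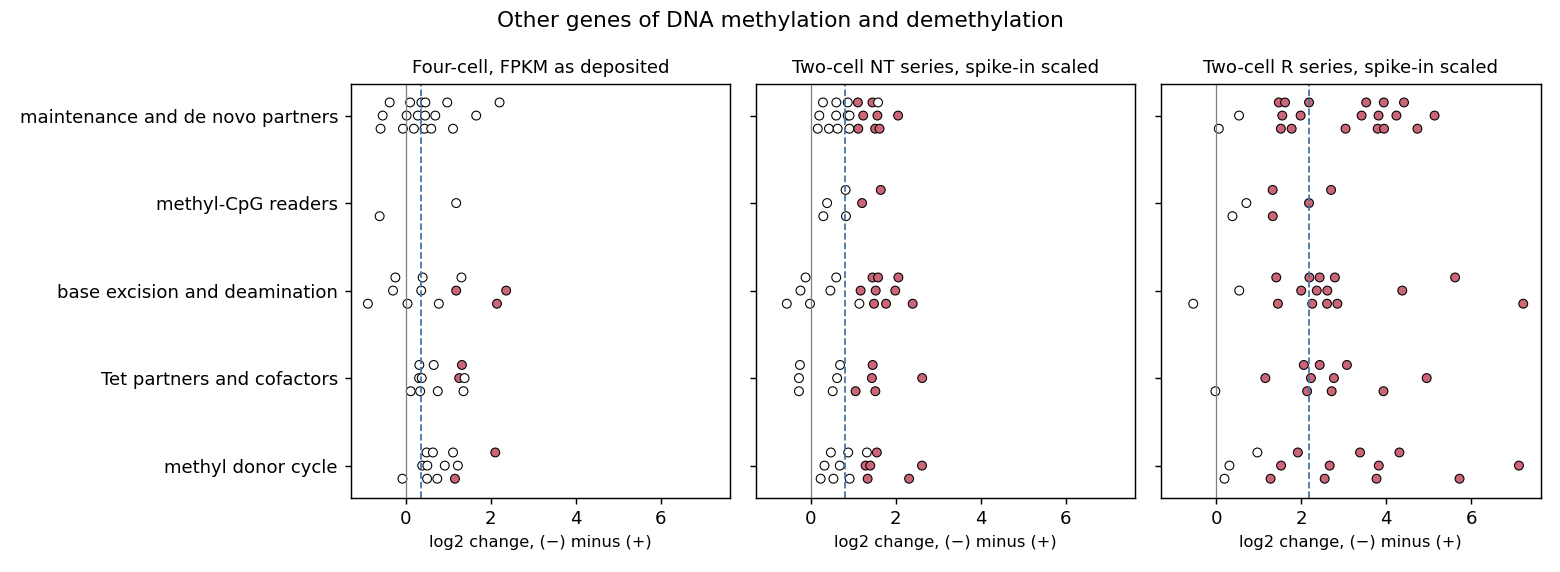
Log2 difference, without minus with α-amanitin, of each tested gene of the 5 lists (1 point per gene, no error bars), in four-cell NT embryos as deposited and in the NT and R series of two-cell NT embryos on the spike-in scale. Filled red points have a limma adjusted p under 0.05, the grey line is no change and the dashed line is the median of all genes tested. Of the points, 7 of 54, 30 of 67 and 57 of 67 are filled, and those of the R series reach 7.23 for Apex1.

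Mat2a, which makes the methyl donor S-adenosylmethionine, had the widest log2 difference of the lists at 4.87 (SE 0.73), followed by the abasic site nuclease gene Apex1 at 4.61 (SE 0.84). Gadd45b (3.84) and Gadd45a (2.92), stress genes linked to demethylation, also rose, as did the folate cycle genes Shmt1 (3.56) and Tyms (2.82) and the betaine-homocysteine methyltransferase gene Bhmt (3.07). Others that rose were Hat1 (3.28), Ogt (3.20), whose product binds TET proteins, Dppa3 (3.19), which protects maternal methylation, Cdca7 (3.15), a partner of the remodeler HELLS, and Trim28 (2.67), the KAP1 corepressor. The limma adjusted p ran from 7.71e-05 for Mat2a to 0.00158 for Trim28.

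The lists too were sensitive to the series and scale. On the spike-in scale 57 of 67 rose in the R series, beside 76.2% of all genes, and 30 of 67 in the NT series, where 36% of all genes were called in either direction. As deposited, 34 rose and 1 fell with both series together, beside 38.9% and 8.51% of all genes, the latter being the pluripotency gene Nanog (-1.10, limma adjusted p = 0.0122), named here after its value was seen, and with median-of-ratios scaling 20 rose and 5 fell, beside 21.9% and 14.2% of all genes. In the NT series alone 12 were called as deposited, beside 18% of all genes.

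In four-cell NT embryos 7 of the 54 tested rose and 0 fell, beside 11.1% and 1.13% of all genes, with a median of 0.50 against 0.37. They were Gadd45g (2.37), Gadd45b (2.15), Mat2a (2.11), Hat1 (1.32), the citric acid cycle gene Idh3a (1.26), the DNA ligase gene Lig3 (1.19) and the thymidylate synthase gene Tyms (1.16), with limma adjusted p from 0.0259 to 0.0483. Lig3 had a mean of 1.56 FPKM without and 0.133 with α-amanitin. It passed the filter only through libraries without α-amanitin, so its call is no support for a rise. With 1 library left out the count was 0 without S15, S17 or S7, beside 1.06%, 1.54% and 0.719% of all genes called in either direction. It was 1 without S18, 3 without S8 and 9 without S16, beside 5.6%, 7.51% and 15.8%. The log2 difference of Mat2a stayed at 1.95 to 2.36 without S15, S17 or S7. In the replication experiment 0 of 62 were called by limma on either scale or by voom, with 0 on the spike-in scale and 7 as deposited at an unadjusted p under 0.05, beside 0.604% and 6.16% of all genes.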

How the data were processed

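RNA-seq of C2C12 NT embryos was taken from 3 tables of FPKM with 24 libraries in all. Per the study's methods and the submitters' processing notes, the authors filtered reads with Trimmomatic, Trim Galore and cutadapt, mapped them to mm10 with STAR and used featureCounts, and the deposited FPKM values were not scaled to spike-ins. Versions and the annotation are not given in the sources used here. Libraries were assigned to groups by column name, with the columns named PBS taken as the arm without α-amanitin in the four-cell table, and 4 further columns of the replication table matched no label and were not used. The oryx libraries were not analysed here.

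Genes with at least 1 FPKM in at least 3 libraries were tested with limma 3.58.1 (R 4.3.3, trend) on log2(FPKM + 1), a scale that understates changes of low genes, with Benjamini-Hochberg adjustment over all genes tested and a threshold of 0.05. FPKM was first divided by the median ratio of the ERCC spike-ins in the replication and two-cell tables, and FPKM as deposited was the alternative. The four-cell table lists no spike-ins. Both two-cell series entered 1 comparison, and each was then fitted alone within a shared model with a term for the difference between their changes, chosen after seeing the data. The planned edgeR and DESeq2 alternatives were not run because the values are FPKM, and limma voom on recovered reads was added after seeing the data. The limma code was tested on simulated data. The study describes its replicates as independent, and p-values measure the spread between pools of embryos.

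All 9 members are named in the pooled two-cell, the four-cell and the replication comparisons. Partner genes past the threshold are named for the pooled two-cell comparison (spike-in scale) and the four-cell comparison. At most the 12 with the widest change were named in each. For the single series the partner genes are given mainly as counts. Members and lists were chosen with earlier results of these data known. Promoters came from RefSeq, where all 9 members matched.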

Additional observations from a re-analysis of the deposited data

Results flagged for a closer look

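In two-cell NT embryos, the changes of the R series and the NT series were compared by a test of their difference (limma with Benjamini-Hochberg adjustment). This difference was called for 3 of 6 members on the spike-in scale and for 4 of 6 as deposited. The median over the 6 members was 1.45 and 0.66, near the medians over all genes given below. These counts therefore do not set the members apart from other genes. On the spike-in scale the R series change exceeded that of the NT series by a log2 value of 2.05 for Dnmt3a (adjusted p = 0.00198), 3.75 for Dnmt3l (adjusted p = 0.000351) and 2.32 for Tet1 (adjusted p = 0.00606), beside 53.2% of all genes past the threshold and a median over all genes of 1.42. On FPKM as deposited the excess was 1.43 for Dnmt3a (adjusted p = 0.00543), 3.17 for Dnmt3l (adjusted p = 0.00196) and 1.78 for Tet1 (adjusted p = 0.0114), and the value for Uhrf1 was -1.25 (adjusted p = 0.0302), beside 44.5% of all genes and a median of 0.76. The column names do not tie the series to early or late recipients, so the series cannot be told apart from stage or from any other difference between their libraries.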

How the results depend on the processing

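The median log2 difference over all genes of two-cell NT embryos was 1.49 on the spike-in scale and 0.67 as deposited. In two-cell NT embryos 4 members were called, 1 with a 4-fold requirement, 0 in the NT series alone on either scale, and 3 to 4 when 1 library was left out. With median-of-ratios scaling 3 were called (Dnmt1, Uhrf1 and Tet3), all of them lower without α-amanitin, although Tet3 passed the filter only through libraries with α-amanitin, beside 14.2% of all genes called lower. Of the partner genes, 54 were called, against 25 with median-of-ratios scaling (36.1% of all genes), 35 as deposited, 26 at 4-fold, 35 with voom, 30 in the NT series alone (12 as deposited) and 50 to 55 when 1 library was left out. In four-cell NT embryos 7 partner genes were called, against 3 with a pseudocount of 0.1, 0 with every gene that had any signal, 2 with median-of-ratios scaling, 3 at 4-fold and 0 to 9 when 1 library was left out. Lig3, 1 of the 7, passed the filter only through libraries without α-amanitin. No member was called in the four-cell or replication comparisons under any setting run.

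Directions turned as follows, in log2 units. In two-cell NT embryos Dnmt1 and Uhrf1 were -0.93 and -1.44 with median-of-ratios scaling, -0.31 and -0.84 as deposited, with or without a series term, -0.50 and -1.23 with voom, -0.36 and -1.46 in the R series as deposited, and -0.26 and -0.21 in the NT series as deposited. Dnmt3l was -0.64 and Trim28 -0.17 in the NT series as deposited. Tet3 ran from -0.091 without r2 to 0.0046 without RAm3, and was 0.013 in the NT series alone. For four-cell recipients Dnmt3a came to -0.092 under median-of-ratios scaling and to -0.030 when S17 was left out. In the replication experiment Dnmt1, Dnmt3a, Dnmt3b and Tet1 were 0.18, 0.25, 0.75 and 0.64 with median-of-ratios scaling, 0.21, 0.29, 0.80 and 0.68 as deposited, and 0.30, 0.49, 1.17 and 0.78 with voom, where Dnmt3l was 0.11. Leaving out 1 library there moved Dnmt3b from -1.92 without D5 to 0.17 without D1, and Tet1 from -2.37 to 0.087. Apart from the change of scale, the cause was not tested.

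The replicate block (series and number) gave 3 members called, with Dnmt1 lost (limma adjusted p = 0.0803), and 51 partner genes, beside 69.4% of all genes. Same-numbered libraries with and without α-amanitin correlated at r = -0.0044 to 0.079 over 17196 genes. Those without α-amanitin matched best with their own number, except for number 3 of the R series. Those with it did so only for numbers 2 and 3 of the NT series and number 1 of the R series. These matches do not settle whether the numbers pair the libraries, and the main fit was left unpaired. No paired analysis was run for the four-cell and replication tables because their columns share fewer than 2 numbers. The four-cell column numbers lie next to each other across the states (S7 and S8, S15 and S16, S17 and S18), but no label pairs them.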
